A study of Arabidopsis thaliana with 12 samples.

Results

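IMA1 (AT1G47400) codes for a short peptide of the Fe deficiency response, and an Arabidopsis thaliana line that expresses the IMA1 reading frame from the 35S promoter (IMA1 OE, Columbia-0 background, line #7-4) was examined for what Fe deficiency still changed in its roots. The comparison used 4 of the 12 libraries of the series: 2 of IMA1 OE roots on Fe-deficient medium and 2 of IMA1 OE roots on full medium. Members were all gene rows with a value of at least 1 in 2 or more of these 4 libraries, which left 19702 of 33607 genes. Seedlings of every group had grown for 10 days on full ES medium with 1.5% sucrose in continuous light and were then moved to new plates for 72 hours, per the labels' protocols. The Fe-deficient plates held ES medium without Fe and with 100 µM ferrozine, an Fe chelator, so that removal of Fe and addition of the chelator cannot be told apart. The full-medium plates held complete ES medium without the chelator. Roots of a line that expressed the fluorescent protein EYFP from the 35S promoter (EYFP OE), on full medium, served only to set the scale between tables and as side values. A comparison of EYFP OE with full-medium IMA1 OE roots shares libraries with the comparison of media, so EYFP OE values are only set beside the others. IMA1 OE rosettes from both media, 2 libraries each, served for a tissue comparison. All groups carried a transgene, each transgene was represented by 1 line, and EYFP OE plants without Fe were not analysed here. A difference between media in IMA1 OE roots is therefore not a test of whether IMA1 OE plants respond unlike other plants.

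Arabidopsis takes up Fe by acidifying the root surface, reducing ferric chelates with the reductase FRO2 and importing ferrous Fe with the transporter IRT1. Basic helix-loop-helix (bHLH) factors, among them FRU (also called FIT) and its partners of the BHLH38 group, switch these genes on, and roots short of Fe also make and secrete coumarins that mobilise Fe in the soil. Fe that is not needed is held in plastids by ferritins and in vacuoles by vacuolar iron transporters. IMA peptides act upstream of the bHLH factors, and plants that overexpress one have active Fe uptake genes on complete medium.

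Values are the authors' normalized expression, which has no unit and no read depth, with those of the Fe-deficient table multiplied by 1.0169 to match the EYFP OE root columns that both tables share. Log2 changes are Fe-deficient minus full medium on the log2(value + 1) scale, which understates changes of low genes. A gene was called when its adjusted p in limma, two-sided with Benjamini-Hochberg adjustment over all tested genes, was under 0.05. Pearson's r across tested genes was 0.989 between the Fe-deficient libraries and 0.984 between the full-medium libraries, with genes not being independent replicates. The labels do not say whether the 2 libraries of a group came from separate plants, so p-values measure the spread between these libraries. The samples were whole roots, in which fewer cells of a type and less RNA per cell cannot be told apart. Markers of the endodermis (6 of 6), of its suberised cells (4 of 4) and of root hair cells (6 of 6) were present in the root libraries, and none of them was called. The 7 photosynthesis genes used as markers of shoot tissue summed to 139.6 and 220.5 in Fe-deficient roots and to 157.4 and 262.7 in full-medium roots, against 27440 to 30030 in the rosettes, and 0 of the 7 were called.

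The overexpressed gene itself did not pass the test between media. AT1G47400 had 328 and 337 in Fe-deficient roots, against 410 and 366 in full-medium roots, which is a log2 change of -0.22 with an SE of 0.08 (limma, adjusted p = 0.866). Reads of the IMA1 construct row stood at 261.6 and 277.6 in Fe-deficient roots and at 318.3 and 298.2 in full-medium roots, and at 0.26 and 0.13 in EYFP OE roots. AT1G47400 had 6.71 and 1.96 in EYFP OE roots, far below the IMA1 OE roots on both media. How much of the AT1G47400 value came from the endogenous locus was not tested. In the authors' deposited tables, which share the EYFP OE roots, its log2 fold change over EYFP OE was 6.29 for Fe-deficient and 6.48 for full-medium IMA1 OE roots.

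Against that level of the transgene, 62 genes were called between media, or 0.315% of those tested, of which 48 were higher (0.244%) and 14 lower (0.0711%) on Fe-deficient medium. Of these, 45 rose and 11 fell by at least 1 log2 unit. The 2 groups did not overlap for any of the 62 genes, a condition that 32% of all tested genes met. The median change over all tested genes was 0.0021. The genes that rose included Fe reduction and import, coumarin synthesis, a bHLH factor and metal sequestration. Those that fell included ferritin, vacuolar iron transporters and Zn transporters, whereas ZIP8 rose. The calls needed both Fe-deficient libraries: without either of them limma called 0 genes, with 638 genes at an unadjusted p under 0.05 without the first and 923 without the second, against 1078 with all 4 libraries. Leaving out the first or the second full-medium library gave 37 and 43 calls.

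**Figure D1:**
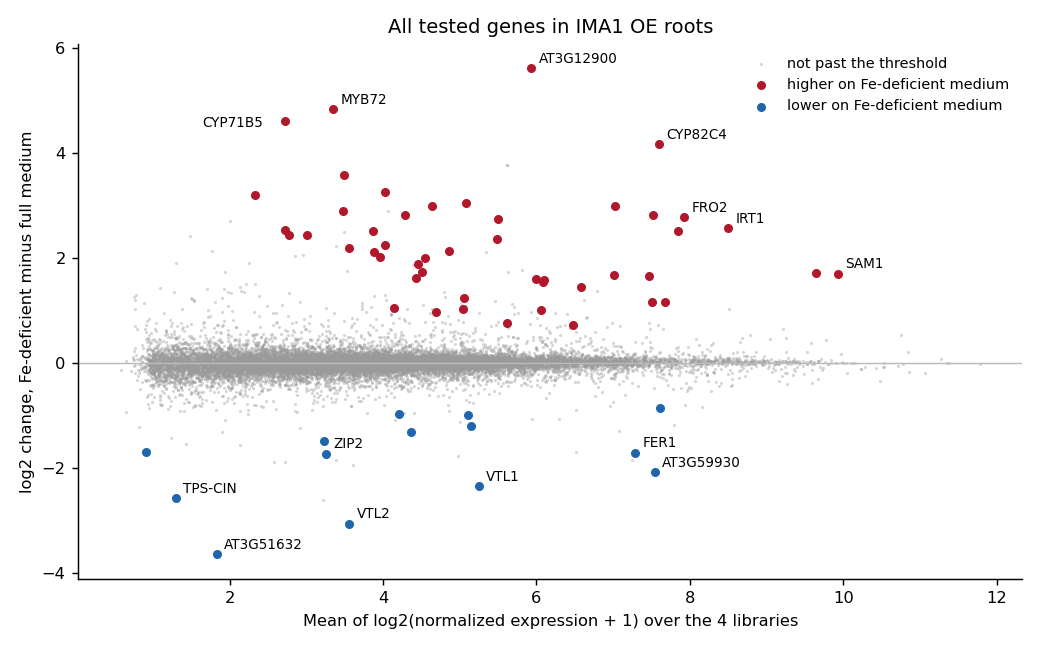
Log2 change between media, Fe-deficient minus full medium, against the mean of log2(normalized expression + 1) over the 4 IMA1 OE root libraries, 1 point per tested gene. The 48 red points lie between 0.72 (AT3G54880) and 5.61 (AT3G12900), the 14 blue points between -3.65 (AT3G51632) and -0.86 (CCH), and the other genes are grey.

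Upstream regions are shown for 4 called genes, 2 that rose and 2 that fell, as the 250 bases before the annotated start in RefSeq's TAIR10.1 genome, written 5′ to 3′ on the gene's strand. The first pair, the gene with the largest rise and the bHLH factor that rose, has the E-box letters CANNTG, the kind of site that bHLH proteins are known to bind, in capitals. AT3G12900 (chr3:4104213-4104462, plus strand) has 1 such match and BHLH100 (chr2:17199455-17199704, minus strand) has 2.
AT3G12900: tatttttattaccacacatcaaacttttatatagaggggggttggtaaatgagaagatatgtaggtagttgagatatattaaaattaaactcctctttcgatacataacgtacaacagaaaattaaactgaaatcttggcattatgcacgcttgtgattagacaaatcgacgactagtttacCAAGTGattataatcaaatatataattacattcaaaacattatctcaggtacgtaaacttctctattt
BHLH100: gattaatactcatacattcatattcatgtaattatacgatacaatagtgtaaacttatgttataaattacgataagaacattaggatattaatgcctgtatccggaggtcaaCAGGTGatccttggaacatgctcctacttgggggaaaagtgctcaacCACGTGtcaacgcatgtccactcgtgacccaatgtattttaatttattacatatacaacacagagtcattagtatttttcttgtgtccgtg
The second BHLH100 match, 91 to 86 bases before the start, is the G-box CACGTG, which is also an E-box. Searched on both strands, an E-box stood in 21 of the 45 risen and 8 of the 12 fallen protein-coding genes with such a window (46.7% and 66.7%), against 56.2% of 19017 tested and 55.3% of all 27443 protein-coding genes. A G-box stood in 2 of the 45 risen genes (4.44%) and 1 of the 12 fallen genes (8.33%), against 7.25% of those tested. The other 2 sequences belong to VTL1 (chr1:7404078-7404327, plus strand) and VTL2 (chr1:28828993-28829242, plus strand), related vacuolar iron transporter genes that fell together. Each of them also has 1 E-box match, which is left in lower case.
VTL1: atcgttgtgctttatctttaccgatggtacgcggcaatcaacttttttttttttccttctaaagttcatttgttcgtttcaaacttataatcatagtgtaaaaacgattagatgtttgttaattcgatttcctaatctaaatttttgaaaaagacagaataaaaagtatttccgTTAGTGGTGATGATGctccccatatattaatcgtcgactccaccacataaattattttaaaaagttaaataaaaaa
VTL2: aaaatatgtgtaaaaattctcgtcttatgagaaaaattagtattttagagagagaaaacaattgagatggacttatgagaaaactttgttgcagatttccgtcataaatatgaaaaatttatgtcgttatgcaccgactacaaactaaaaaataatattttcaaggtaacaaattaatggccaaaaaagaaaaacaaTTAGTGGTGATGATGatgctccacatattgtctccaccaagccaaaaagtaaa
The capitals mark their longest shared run, 15 bases long, which was found by comparing these windows. It lies 76 to 62 bases before the start of VTL1 and 53 to 39 bases before that of VTL2. No other of the 27443 windows held it on either strand. Since a run this long was picked from these windows, its absence elsewhere is no measure of specificity. These matches describe the letters and are no evidence of a site.

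IRT1, IRT2 and FRO2 rose on Fe-deficient medium, and on full medium they already lay above the values of EYFP OE roots. Of 6 genes on the Fe uptake list, 3 rose, 0 fell and 3 did not pass, with a median log2 change of 1.57 over the 6. Over all tested genes 0.244% rose and 0.0711% fell. This list and those below were chosen with earlier results of these data known, so their counts are no independent support. IRT1 (chromosome 4, 10707344 to 10709015) had 997 and 772 in Fe-deficient roots, against 161 and 136 in full-medium roots, a log2 change of 2.56 (SE 0.15, adjusted p = 0.0111 in limma). EYFP OE roots had 13.4 and 23.1, so the lowest IRT1 value in full-medium IMA1 OE roots exceeded the highest in EYFP OE roots. FRO2, the ferric chelate reductase of the root surface, had 690 and 582 in Fe-deficient roots, against 99.8 and 84.3 in full-medium roots, a log2 change of 2.77 (SE 0.13, adjusted p = 0.00667). The Fe-deficient libraries lay far above the full-medium libraries for both genes. IRT2, a close relative of IRT1 that lies beside it on chromosome 4 (10703348 to 10704838), had 26.6 and 21.8, against 4.61 and 4.44 (log2 change 2.18, SE 0.12, adjusted p = 0.00852). EYFP OE roots had 2.25 and 2.34 for IRT2. The authors' log2 fold change of full-medium IMA1 OE over EYFP OE roots was 0.98 for IRT2 (Z-test p = 0.39). It was 3.03 for IRT1 and 2.78 for FRO2.

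The proton pumps and the low-affinity importer on this list did not pass. AHA2, a plasma membrane proton pump of the root surface, had 653 and 586 in Fe-deficient roots, against 431 and 470 in full-medium roots (log2 change 0.46, adjusted p = 0.307). AHA7, a related pump, had 35.1 and 31.4, against 12.8 and 21.5 (log2 change 0.96, adjusted p = 0.545). NRAMP1, which imports Mn and Fe, had overlapping groups and a log2 change of 0.11. In both pumps the groups did not overlap, as in 32% of all tested genes. The full-medium libraries of AHA7 lay further apart than its Fe-deficient libraries.

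The bHLH list had 15 members, all tested: 3 rose, 0 fell and 12 did not pass, with a median log2 change of 0.41. Over all tested genes 0.244% rose. BHLH100, one of the partners of FRU, had 107.5 and 85.5 in Fe-deficient roots, against 13.7 and 8.53 in full-medium roots, a log2 change of 3.03 (SE 0.24, adjusted p = 0.028 in limma). Its call ended without the intensity trend (adjusted p = 0.0608) and when no gene was filtered out (adjusted p = 0.0586). The other partners had large changes that did not pass in the main fit. With a term for replicate number in the fit, BHLH38 and BHLH39 were called (limma adjusted p = 5.69e-05 and 0.00011). The labels do not say that equal numbers mark a shared plate or day. BHLH38 had 101.9 and 68.5, against 23.3 and 14.9 (log2 change 2.11, SE 0.28, adjusted p = 0.119). BHLH39, a close relative, had 110.7 and 71.6, against 32.1 and 21.5 (log2 change 1.72, SE 0.28, adjusted p = 0.206). BHLH101 had 13.0 and 12.4, against 7.85 and 3.96 (log2 change 1.05, SE 0.28, adjusted p = 0.613). None of these 3 genes had overlapping groups, a condition that 32% of all tested genes met. Their library values within a medium differed by up to 1.98-fold.

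FRU itself had 135.5 and 98.5 in Fe-deficient roots, against 65.9 and 55.6 in full-medium roots. Its log2 change of 0.92 did not pass in the main fit (SE 0.18, limma adjusted p = 0.306). FRU was called with a term for replicate number in the fit (limma adjusted p = 0.00267). The factors that act upstream of the BHLH38 group lay close to 0: ILR3 at 0.29, BHLH115 at 0.10, BHLH121 at 0.05, BHLH104 at -0.01 and BHLH34 at -0.11. PYE, a bHLH repressor of Fe storage and transport genes, had a log2 change of 0.29, and BHLH11 one of -0.45, neither past the threshold. E3 ligases of the BTS kind mark bHLH factors for degradation and also bind Fe. BTS had 25.4 and 24.8, against 17.9 and 19.6 (log2 change 0.41, adjusted p = 0.315). AT1G74770, which RefSeq annotates as a zinc ion binding protein, rose to 115.3 and 104.7 in Fe-deficient roots, against 33.9 and 37.5 in full-medium roots (log2 change 1.60, SE 0.09, adjusted p = 0.00852). AT1G18910, with the same annotation, rose to 50.5 and 50.0, against 20.6 and 20.9 (log2 change 1.24, SE 0.06, adjusted p = 0.00811). The 2 libraries of each group nearly coincided for AT1G18910.

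Among the IMA peptide genes, 0 of the 2 tested were called. AT1G47395 had 2.07 and 5.41 in Fe-deficient roots, against 1.18 and 1.70 in full-medium roots (log2 change 0.87, adjusted p = 0.998), and EYFP OE roots had 12.2 and 3.99. AT2G30766 did not pass the filter on low values, with at most 0.417 in IMA1 OE roots.

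Of the 12 coumarin list members, all tested, 7 rose, 0 fell and 5 did not pass, with a median log2 change of 2.203. Over all tested genes 0.244% rose, and this list too was chosen with earlier results known. AT3G12900 (chromosome 3, 4104463 to 4106341), which RefSeq annotates as an Fe(II)-dependent oxygenase and whose upstream region is printed above, had 478 and 379 in Fe-deficient roots, against 8.90 and 6.75 in full-medium roots. Its log2 change of 5.61 was the largest of all tested genes (SE 0.17, limma adjusted p = 0.0021), and the ratio of its means was 54.8. CYP82C4, a cytochrome P450 that oxidises coumarins, had 881 and 759, against 48.5 and 41.2 (log2 change 4.16, SE 0.12, adjusted p = 0.00177). F6'H1, the oxygenase that makes the precursor of scopoletin, had 487 and 484, against 58.0 and 80.6 (log2 change 2.81, SE 0.16, adjusted p = 0.0102). Each of these 3 oxygenases had Fe-deficient libraries far above its full-medium libraries.

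The MYB factors of this branch rose with the enzymes. MYB72 (chromosome 1, 21022384 to 21023587), a root factor for coumarin release, had 55.1 and 52.0 in Fe-deficient roots, against 0.79 and 1.06 in full-medium roots (log2 change 4.83, SE 0.11, limma adjusted p = 0.00177). MYB10, which acts with MYB72, had 56.4 and 45.7, against 6.81 and 5.88 (log2 change 2.82, SE 0.13, adjusted p = 0.00667). MYB72 in full-medium roots stood near the lowest values that the filter admits, whereas MYB10 was well above them. The full-medium values of MYB72 alone would not have passed the filter, so it needed the Fe-deficient libraries to be tested. BGLU42, a glucosidase that frees coumarins from their sugar, had 117.8 and 113.8, against 16.2 and 17.0 (log2 change 2.73, SE 0.07, adjusted p = 0.00177), with 16.1 and 15.3 in EYFP OE roots. ABCG37, an exporter of coumarins, had 246 and 212, against 78.6 and 64.0 (log2 change 1.67, SE 0.13, adjusted p = 0.028). For ABCG37 the EYFP OE roots had 60.9 and 53.9, and its call ended without the intensity trend.

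The 5 coumarin list members that did not pass had smaller changes. CCoAOMT1, a methyltransferase of phenylpropanoids, had a log2 change of 0.44 (limma adjusted p = 0.209), and AT1G28680 had one of 0.57 (adjusted p = 0.0958). BGLU21, BGLU22 and BGLU23, glucosidases abundant in roots, lay between -0.11 and 0.06 with overlapping groups. Entry steps of phenylpropanoid synthesis, which supply coumarins, were on a separate list of 11 genes: 3 rose, 0 fell and 8 did not pass, with a median of 0.30. PAL2, which deaminates phenylalanine, had 311 in both Fe-deficient libraries, against 92.9 and 105.2 in full-medium roots (log2 change 1.65, SE 0.08, adjusted p = 0.00696). The ligases 4CL2 and 4CL1, which activate coumaric acid, rose by 1.45 and 1.15 log2 units (SE 0.07 and 0.06), and the calls of PAL2 and 4CL1 ended when the rosettes shared the estimate of the spread. PAL1 at 1.03 and C4H at 0.53 did not pass in the main fit. Both were called with a term for replicate number (limma adjusted p = 0.000617 and 0.0065). The flavonoid enzymes CHS, CHI, F3H, FLS1 and DFR lay between -0.92 and -0.12 with overlapping groups.

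**Figure D2:**
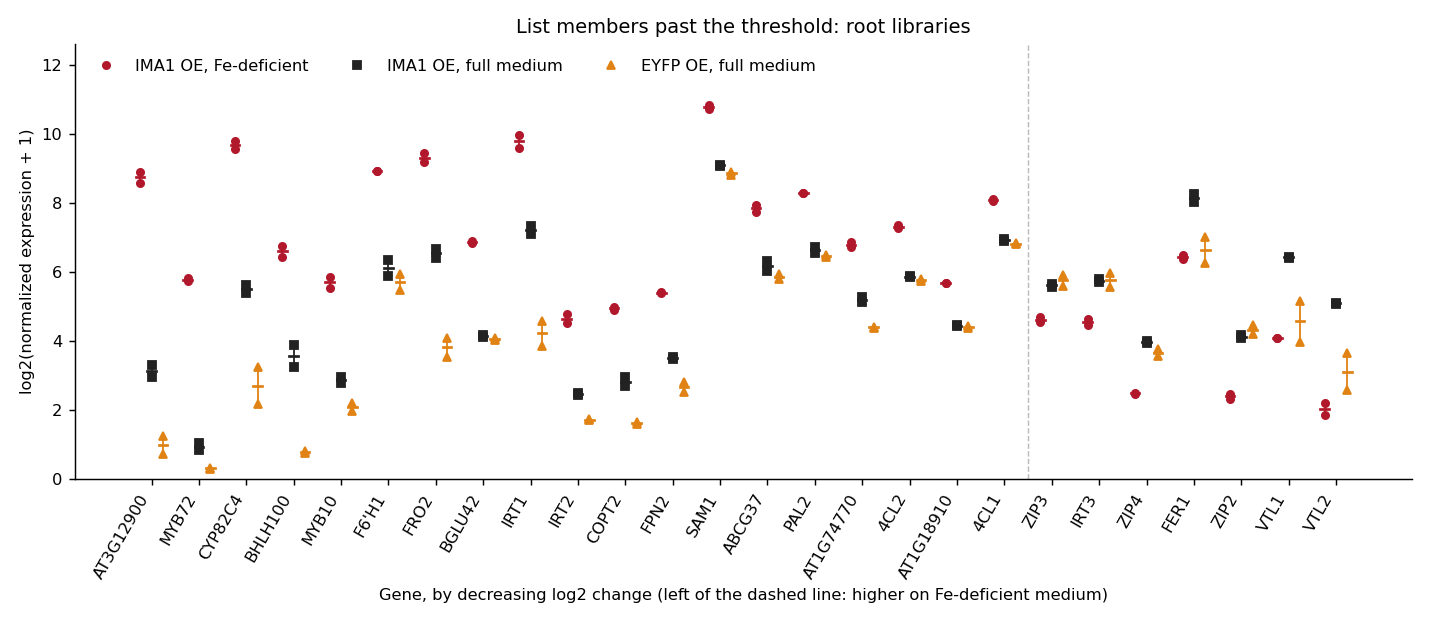
Values of log2(normalized expression + 1) for the 26 called list members in the 6 root libraries. Symbols are libraries, horizontal ticks group means and vertical lines the range of the 2 libraries; 19 genes left of the dashed line are higher and 7 right of it lower on Fe-deficient medium, and in every gene the red and black symbols are apart.

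Of 10 members on the Fe storage list 7 were tested: 0 rose, 3 fell and 4 did not pass, with a median log2 change of -1.31. Over all tested genes 0.0711% fell. FER1, the main ferritin of roots and leaves, had 88.3 and 82.1 in Fe-deficient roots, against 258 and 306 in full-medium roots, a log2 change of -1.71 (SE 0.10, adjusted p = 0.0111 in limma). EYFP OE roots on full medium had 75.4 and 128.5, a range that holds the Fe-deficient IMA1 OE values and lies below the full-medium IMA1 OE values. In the authors' deposited tables, which share the EYFP OE roots, the log2 fold change of FER1 over EYFP OE was -0.28 for Fe-deficient and 1.47 for full-medium IMA1 OE roots. The call of FER1 ended when the EYFP OE roots shared the estimate of the spread (adjusted p = 0.0649) and when the rosettes did (adjusted p = 0.112).

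The vacuolar iron transporters of the VTL family showed the largest falls among storage genes. VTL1, whose upstream region is printed above, had 15.9 in both Fe-deficient libraries, against 84.3 and 85.7 in full-medium roots, a log2 change of -2.35 (SE 0.06, adjusted p = 0.00177 in limma). VTL2 had 2.61 and 3.64, against 33.5 and 32.8, a log2 change of -3.06 (SE 0.14, adjusted p = 0.00667). EYFP OE roots had 14.7 and 34.8 for VTL1 and 4.95 and 11.5 for VTL2, below the full-medium IMA1 OE roots in both genes. The call of VTL1 ended when the EYFP OE roots shared the estimate of the spread (adjusted p = 0.0782), and that of VTL2 held under all 11 alternatives that keep the 4 libraries. VTL5 had 111.0 and 64.7, against 278 and 160.1 (log2 change -1.31, SE 0.36, adjusted p = 0.627), with widely spread libraries in both media. With a term for replicate number in the fit, VTL5 was called (limma adjusted p = 0.00017). FER3 and FER4 had log2 changes of -0.43 and -0.53 and FER2 one of -0.19, none past the threshold.

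Genes of Fe chelation and transport to the shoot gave no call in the main fit. Of 12 list members 10 were tested, 4 with a positive and 6 with a negative change, and the median was -0.36. With a term for replicate number in the fit, NAS1, NAS2, ZIF1, OPT3, FRD3, YSL2, NRAMP3 and NRAMP4 were called (limma adjusted p of 0.000163 to 0.0347). The labels do not say that equal numbers mark a shared plate or day. The largest negative change was that of FRD3, a citrate exporter that loads Fe into the xylem, with 19.2 and 13.4 in Fe-deficient roots against 65.1 and 50.4 in full-medium roots (log2 change -1.77, SE 0.21, limma adjusted p = 0.0862). OPT3, a phloem transporter needed for shoot-to-root Fe signalling, had 16.8 and 19.99, against 8.01 and 8.21 (log2 change 1.08, SE 0.11, adjusted p = 0.0586). Both genes had groups that did not overlap, as did 32% of all tested genes. The nicotianamine synthases differed in sign: NAS1 had 277 and 227, against 169 and 150.1 (log2 change 0.65, adjusted p = 0.293), and NAS2 had 87.4 and 98.4, against 156 and 176 (log2 change -0.83, adjusted p = 0.0862). YSL2, a carrier of metal-nicotianamine complexes, stood at -0.83 and NRAMP3, an exporter from the vacuole, at -0.81, whereas NRAMP4 stood at 0.49 and ZIF1, a vacuolar nicotianamine importer, at 0.47.

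Genes that lock other metals into the vacuole, which IRT1 also imports, had a median log2 change of 1.89 over 5 tested members, 1 of which was called. FPN2, which moves Co and Ni into root vacuoles, rose to 41.4 and 40.9 in Fe-deficient roots, against 10.7 and 10.13 in full-medium roots (log2 change 1.89, SE 0.07, limma adjusted p = 0.00451). Changes of about the same size in 3 other members just missed the threshold in the main fit. All 3 were called with a term for replicate number (limma adjusted p of 0.000197 to 0.00102). HMA3, a vacuolar pump for Cd and Zn, had 26.5 and 17.7, against 4.54 and 3.25 (log2 change 2.23, SE 0.23, adjusted p = 0.0642). AT3G58060 had 16.5 and 11.2, against 2.76 and 2.36 (log2 change 2.04, SE 0.20, adjusted p = 0.0539), and MTP3, a vacuolar Zn importer, had 120.6 and 87.8, against 31.6 and 27.7 (log2 change 1.77, SE 0.17, adjusted p = 0.053). MTP1, a related Zn carrier, had overlapping groups and a log2 change of 0.01.

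Of 9 members on the list of Zn uptake and export, all tested, 0 rose, 4 fell and 5 did not pass, and the median was -0.94. Over all tested genes 0.0711% fell. ZIP2 had 4.04 and 4.52 in Fe-deficient roots, against 16.01 and 16.9 in full-medium roots (log2 change -1.73, SE 0.10, limma adjusted p = 0.00923). ZIP4 had 4.51 and 4.66, against 14.5 and 14.9 (log2 change -1.49, SE 0.09, adjusted p = 0.0102). IRT3, a Zn and Fe transporter, had 21.0 and 23.9, against 51.0 and 54.3 (log2 change -1.20, SE 0.09, adjusted p = 0.0268), and ZIP3 had 24.6 and 22.4, against 46.1 and 49.6 (log2 change -0.995, SE 0.08, adjusted p = 0.0351). In these 4 genes the libraries of a medium lay close together. ZIP1 at -0.94 (adjusted p = 0.0651) and ZIP5 at -0.88 (adjusted p = 0.0837) did not pass. ZIP9 had the opposite sign, with 8.51 and 4.51 against 2.18 and 1.57 (log2 change 1.34, adjusted p = 0.411). A term for replicate number brought ZIP1, ZIP5 and ZIP9 past the threshold (limma adjusted p of 0.0112 to 0.0153). ZIP8, which shares the ZIP name but was not on this list, rose to 15.8 and 13.97, against 1.79 and 1.71. Its log2 change was 2.53 (SE 0.11, limma adjusted p = 0.00667). The Zn exporters HMA2 and HMA4, which load the xylem, had log2 changes of -0.05 and -0.15. The calls of ZIP3 and IRT3 ended without the intensity trend, and those of ZIP3, IRT3 and ZIP4 ended when the rosettes shared the estimate of the spread.

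Among Cu uptake genes and superoxide dismutases, 1 of 11 members rose, 0 fell and the median was -0.04. COPT2, a Cu importer of the root surface, had 30.6 and 28.8 in Fe-deficient roots, against 6.68 and 5.52 in full-medium roots (log2 change 2.12, SE 0.11, limma adjusted p = 0.00819). This call ended when the rosettes shared the estimate of the spread. FSD1, the Fe superoxide dismutase, had 35.6 and 70.5, against 125.3 and 215 (log2 change -1.69, SE 0.41, adjusted p = 0.487), with about a 1.98-fold gap between the Fe-deficient libraries. With a term for replicate number in the fit, FSD1 was called (limma adjusted p = 0.00017). The Cu/Zn enzymes CSD1 and CSD2 stood at 0.48 and 0.19 and their chaperone CCS at 0.43, none of them past the threshold. FRO3, a mitochondrial ferric reductase and the 1 tested gene of 7 other ferric reductases, had 72.6 and 58.4, against 30.1 and 26.4 (log2 change 1.18, SE 0.13, adjusted p = 0.0744).

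Methionine salvage feeds nicotianamine and ethylene synthesis. Of 12 list members 11 were tested: 1 rose, 0 fell, 10 had a positive change and the median was 0.65. SAM1, an S-adenosylmethionine synthetase, had 1834 and 1678 in Fe-deficient roots, against 536 and 547 in full-medium roots (log2 change 1.69, SE 0.08, limma adjusted p = 0.00667). DEP1 at 0.86, ATARD2 at 0.76, MTI1 at 0.71, MTK at 0.68 and MAT3 at 0.65, which act around the same cycle, had adjusted p-values of 0.0651 to 0.108. These genes passed with a term for replicate number (limma adjusted p of 0.00249 to 0.0102). Their groups did not overlap, as in 32% of all tested genes. MTN1 and MAT4 had overlapping groups.

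Other gene groups of the root gave no call in the main fit. Over the Fe-S cluster assembly list the median was -0.03 and the range -0.43 to 0.14 (11 tested). Catalases and ascorbate peroxidases ranged from -0.44 to -0.10 (4 of 5 tested), and phosphate starvation genes from -0.46 to 0.24 (10 of 11 tested). Casparian strip and suberin genes had a median of -0.01 and ranged from -0.40 to 0.30 (15 tested), and root hair genes had a median of 0.14 and ranged from -0.27 to 0.29 (7 tested). Clock genes ranged from -0.10 to 0.13 (10 tested), defence and jasmonate genes from -0.54 to -0.23 (4 of 9 tested) and photosynthesis genes from -0.35 to 0.13 (7 tested). A p above the threshold does not show that these genes were equal between media.

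**Figure D3:**
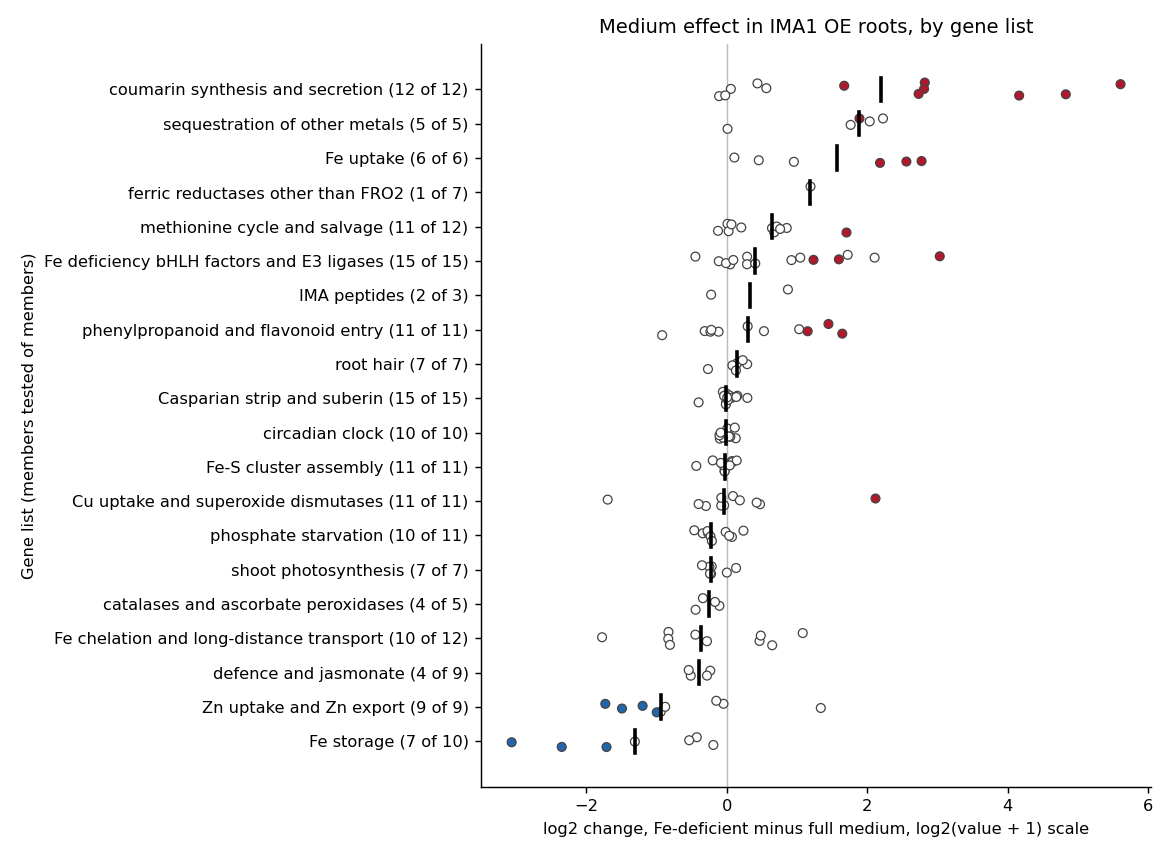
Log2 change between media, Fe-deficient minus full medium on the log2(value + 1) scale, for the 168 tested members of 20 gene lists, 1 point per gene. Filled points are called genes, 19 red higher and 7 blue lower, black bars are list medians, and points are shifted up or down at random within a list; coumarin synthesis has the highest median at 2.203 and Fe storage the lowest at -1.31.

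Outside the lists, 29 genes rose and 7 fell. CYP71B5 (chromosome 3, 19755689 to 19757613), a cytochrome P450, had 29.9 and 33.4 in Fe-deficient roots, against 0.34 and 0.35 in full-medium roots (log2 change 4.60, SE 0.11, limma adjusted p = 0.00177). EYFP OE roots had 0.12 and 0.08. CYP71B5 passed the filter on low values through the Fe-deficient libraries alone, so that it could enter the test only as a gene that was higher there. AT1G52120, annotated as a mannose-binding lectin, had 43.4 and 32.8, against 2.80 and 1.77 (log2 change 3.58, SE 0.21, adjusted p = 0.0106). AT5G38820, annotated as an amino acid transporter, had 56.2 and 42.8, against 4.37 and 4.21 (log2 change 3.24, SE 0.15, adjusted p = 0.00667). These 3 genes were below a value of 5 in every full-medium library. SCRL28, which RefSeq lists as a transcribed pseudogene, had 16.6 and 12.1, against 1.0 and 0.39 (log2 change 3.19, SE 0.24, adjusted p = 0.028). The full-medium values of SCRL28 alone would not have passed the filter, so it needed the Fe-deficient libraries to be tested. GSTL1, a lambda glutathione transferase, had 449 and 299, against 51.4 and 39.9 (log2 change 2.99, SE 0.23, adjusted p = 0.028). AT3G61930, an uncharacterised protein, had 71.7 and 67.1, against 8.31 and 7.51 (log2 change 2.98, SE 0.08, adjusted p = 0.00177), and AT4G17680, annotated as an S-ribonuclease binding protein, had 37.1 and 23.3, against 3.32 and 2.91 (log2 change 2.89, SE 0.23, adjusted p = 0.0295). The calls of SCRL28, GSTL1 and AT4G17680 ended without the intensity trend.

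The genes that fell furthest outside the lists were partly at the floor of the table. AT3G51632 was listed at 0.01 in both Fe-deficient libraries, against 12.2 and 11.2 in full-medium roots and 12 and 10.8 in EYFP OE roots (log2 change -3.65, limma adjusted p = 0.00279). In rosettes it had 8.62 and 6.09 in the columns taken as Fe-deficient, and 7.73 and 0.01 on full medium. It thus also stood at the floor in a full-medium rosette library. TPS-CIN (AT3G25830) is a cineole synthase gene with a neighbour of the same name (AT3G25820). Whether reads were split between them was not tested. TPS-CIN (AT3G25830) was listed at 0.01 in both Fe-deficient libraries, against 5.01 and 5.02 (log2 change -2.57, adjusted p = 0.00852). It was also at 0.01 in 1 EYFP OE library and at 13.7 in the other, and its call ended when those libraries shared the estimate of the spread. ATMG01010 was the remaining gene with a group at the floor, at 0.04 in both Fe-deficient libraries, against 2.29 and 2.50 (log2 change -1.71, adjusted p = 0.046), and 1 EYFP OE library was at 0.04. These 3 genes passed the filter through the full-medium libraries alone, and no fold is given for them, since a floor value cannot be told from an unread gene. AT3G59930, annotated as a defensin-like protein, had 101.6 and 79.2, against 427 and 346 (log2 change -2.09, SE 0.16, adjusted p = 0.028), and AT3G20340 had 10.8 and 13.3, against 31.5 in both full-medium libraries (log2 change -1.33, SE 0.11, adjusted p = 0.0391). IGMT3, an indole glucosinolate methyltransferase, fell by 0.98 and CCH, a Cu chaperone, by 0.86 log2 units. The calls of AT3G59930, AT3G20340, IGMT3 and CCH ended without the intensity trend, and that of AT3G59930 also when no gene was filtered out. When the rosettes shared the estimate of the spread, the calls of AT3G51632, AT3G20340, IGMT3, CCH and ATMG01010 ended. When the EYFP OE roots shared it, those of AT3G20340 (adjusted p = 0.227), CCH (adjusted p = 0.138) and ATMG01010 (adjusted p = 0.466) ended. The call of ATMG01010 also ended with either other pseudocount, and with the filter at 5 it was not tested.

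Roots and rosettes of the IMA1 OE line were compared in the size of the medium effect by the interaction term of a limma fit over 8 libraries. The rosette columns taken as Fe-deficient carry a +Fe heading in their deposited table and were placed by the descriptions in the labels, so every rosette value below carries that doubt. Of 21144 genes, 29 (0.137%) differed between tissues, 23 with a more positive and 6 with a more negative change in roots, and 25 of the 29 were also called in roots. The coumarin list held 5 of these genes, Fe uptake 2 and Fe storage 2. AT3G12900 had 0.71 and 0.49 in Fe-deficient rosettes, against 0.10 and 0.12 in full-medium rosettes, and its medium effect differed by 5.08 (SE 0.23, limma adjusted p = 0.000736). MYB72 was at 0.101 or less in every rosette library, so its difference of 4.75 (SE 0.17, adjusted p = 0.000266) was set by the root values. CYP82C4 had 1.54 and 0.74 in Fe-deficient rosettes, against 0.21 and 0.25 in full-medium rosettes, and AT1G52120 stayed at 0.152 or less there. Their effects differed by 3.39 and 3.48.

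CYP71B5 was expressed in rosettes without such a difference, with 15.1 and 15.7 on Fe-deficient and 17.3 and 16.7 on full medium, a tissue difference of 4.74 (SE 0.13, limma adjusted p = 9.43e-05). FOLB1, a dihydroneopterin aldolase of folate synthesis, had 15.96 and 14.0 in Fe-deficient roots against 2.09 and 1.81 in full-medium roots, and 10.97 and 12.2 in Fe-deficient rosettes against 8.69 and 9.92 in full-medium rosettes. Its effect differed by 2.15 (SE 0.17, adjusted p = 0.00684). BGLU42 had 15.5 and 15.3 in Fe-deficient rosettes, against 15.2 and 14.7 in full-medium rosettes, and differed by 2.69 (SE 0.10, adjusted p = 0.000284). These 3 genes had rosette values well above 1 in every library. CYP71B5 and BGLU42 changed by -0.14 and 0.04 log2 units between media in rosettes, and FOLB1 by 0.29.

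Among the storage genes named above, the medium effect of VTL1 and VTL2 differed between tissues. VTL2 had 7.59 and 6.75 in Fe-deficient rosettes, against 10.4 and 11.5 in full-medium rosettes, and its change was 2.51 log2 units more negative in roots (SE 0.19, limma adjusted p = 0.00684). VTL1 had 2.18 and 2.47, against 4.41 and 4.38, a difference of -1.65 (SE 0.12, adjusted p = 0.00538). FER1 had 253 and 126 in Fe-deficient rosettes, against 1265 and 995 in full-medium rosettes, and the difference of 0.94 between tissues did not pass (SE 0.43, adjusted p = 1). For IRT1 the difference of 1.84 did not pass either (SE 0.26, adjusted p = 0.0824), and for FRO2 it was 2.22 (SE 0.23, adjusted p = 0.025), a call that ended with a pseudocount of 0.1 (adjusted p = 0.629). That pseudocount also ended the tissue calls of CYP82C4, AT1G52120 and TPS-CIN. Over 8 fits that each left out 1 library, the tissue call ended in 0 for AT3G12900, MYB72, CYP71B5 and BGLU42, in 1 for AT1G52120, in 2 for VTL2, in 3 for FOLB1, in 4 for CYP82C4 and VTL1 and in 7 for FRO2.

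**Figure D4:**
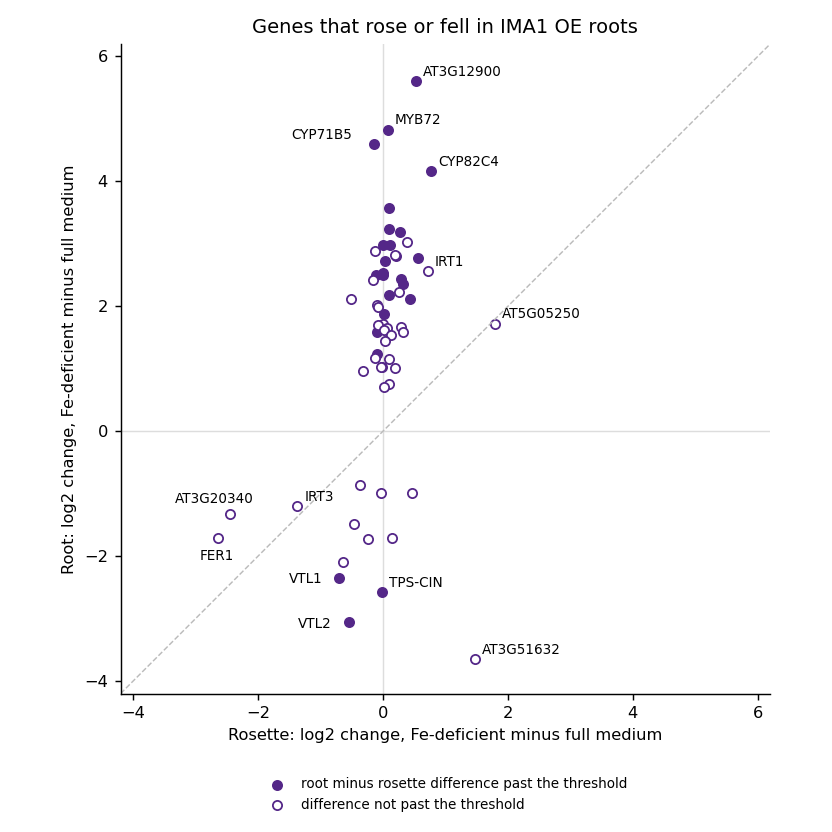
Log2 change between media, Fe-deficient minus full medium, in IMA1 OE roots (vertical axis) against that in IMA1 OE rosettes (horizontal axis), for the 62 genes called in roots. Filled points are the 25 genes whose change differed between tissues, open points the others, and the dashed line marks equal change. Most risen genes lie near 0 in rosettes, while FER1 is at -1.71 in roots and -2.65 in rosettes. The log2(value + 1) scale draws genes with low rosette values towards 0, such as AT3G12900 with 0.71 and 0.49 against 0.10 and 0.12. A point near 0 there does not show that the gene did not respond in rosettes.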

How the data were processed

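The deposited signal is the authors' normalized expression, in 4 tables named TMM with 33607 genes and 4 construct rows, beside a p-value (from a Z-test, per the file headers) and a log2 fold change over EYFP OE. The deposited columns hold no counts, so depth and precision per library are unknown. The submitters' processing notes name bcl2fastq 1.8.4, Trimmomatic 0.35, Bowtie2 2.0.6, edgeR 3.12.1, limma 3.26.9 and TAIR10, with no role; counting and its strand setting are not given in the sources used here.

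Groups came from the sample labels. The shared EYFP OE columns gave 1 factor per Fe-deficient table, 1.0169 in roots (19537 genes) and 1.0139 in rosettes. In roots the median ratio depended on level, from 1.032 at values of 1 to 5 to 0.996 above 100. limma 3.58.1 in R 4.3.3 (lmFit, eBayes with intensity trend) was run on log2(value + 1). It was tried on simulated data with independent noise in each library, which did not cover same-numbered libraries that deviate together. The interaction used genes of at least 1 in 2 or more of 8 columns.

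The genes, lists and shown sequences were chosen with earlier results of these data known. Named genes are AT1G47400, list members past the threshold or with a log2 change of at least 0.4, others by range or as relatives of a named gene, the 12 largest rises and falls, and the 5 largest tissue differences each way. FOLB1, RBOHD, ZIP8, AT5G05250 and the genes of the closing section were named after their values were seen. RefSeq (TAIR10.1) matched 59 of the 62 called IDs. Alternatives covered pseudocount, filter, scale, trend, replicate block, libraries in the fit and leaving out each library.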

Additional observations from a re-analysis of the deposited data

Results flagged for a closer look

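The medium effect differed between IMA1 OE roots and rosettes, by limma's interaction term, for the 10 genes below, which are the 5 largest such differences in each direction. The rosette values carry the doubt on their column headings. More positive in roots were AT3G12900, with a difference of 5.08 log2 units, MYB72 with 4.75, CYP71B5 with 4.74, AT1G52120 with 3.48 and CYP82C4 with 3.39, and 4 of these 5 were below 2 in every rosette library. More negative in roots were AT2G23672 with -6.24, AT4G19112 with -3.77, TPS-CIN with -2.56, VTL2 with -2.51 and AT5G01542 with -1.70.

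AT2G23672, a long noncoding RNA, had 106.5 and 56.0 in Fe-deficient rosettes, against 0.02 in both full-medium rosettes, and AT4G19112 had 14.9 and 11.2, against 0.01 in both. AT5G01542, another long noncoding RNA, had 2.14 and 2.31 in Fe-deficient rosettes, against 0.01 in both full-medium rosettes. AT5G01542 reached a value of 1 in the Fe-deficient rosettes alone, so it could enter the test only through the group where it was high. In roots AT2G23672 and AT4G19112 changed by 0.02 and 0.01 log2 units, and AT5G01542 did not pass the filter there. These 3 genes were thus at the floor of the table in full-medium rosettes, where their levels cannot be told from unread genes. TPS-CIN reached a value of 1 in full-medium roots alone, so it too could enter this test only through the group where it was high.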

How the results depend on the processing

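Depth is unknown, and 2 libraries per group limit the precision. The 62 calls between media became 1992 without the filter on low values (1871 of them genes with every value under 1), 40 without the intensity trend and 112 with all 3 root groups in the fit; leaving out 1 library gave 0 to 43, with the lone library of an arm assumed to vary like the other group. With both tissues in the fit there were 93, of which 46 were among the 62. The 29 tissue differences became 13 with a pseudocount of 0.1, 56 with one of 5 and 1919 without the filter, and 14 to 23 with 1 library left out. Other scales between tables gave 62, 62 and 63 calls. The causes were not tested.

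The labels do not say that equal replicate numbers mark a shared plate or day. Same-numbered libraries deviated together from their group means (r = 0.526 across genes), and with the replicate block 388 genes were called between media (263 higher, 125 lower), all 62 among them, and 37 genes differed between tissues. Of 59 named list members that were not called, 34 were called with the block. Among them were FRU (limma adjusted p = 0.00267), BHLH38 (5.69e-05), BHLH39 (0.00011), VTL5 and FSD1 (0.00017 each). HMA3 (0.000197), MTP3 (0.0003) and FRO3 (0.000612) were also among them.

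No called gene changed sign under any alternative. Of the named genes that did not pass, MTP1 reversed to -0.01 without the correction between tables, -0.005 with it gene by gene and -0.009 after quantile normalization. With 1 library left out, the log2 change ranged across 0, from -0.029 to 0.056 for MTP1, -0.318 to 0.229 for HMA2, -0.011 to 0.113 for BHLH121, -0.051 to 0.032 for BHLH104, -0.029 to 0.248 for NRAMP1 and -0.246 to 0.021 for BHLH34.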

Other observations

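Some called genes lie near each other or have neighbouring identifiers. SCRL28 (chromosome 1, 4849440 to 4849892) and AT1G14185 (4850117 to 4852096), annotated as a glucose-methanol-choline oxidoreductase, both rose, AT1G14185 to 35.5 and 33.4 in Fe-deficient roots, against 8.14 and 5.20 in full-medium roots. PAL2 (chromosome 3, 19744018 to 19747114) and CYP71B5 (19755689 to 19757613), which lie further apart, both rose. ATMG01000 and ATMG01010, which have no entry in RefSeq's table here and so no position, moved in opposite directions. ATMG01000 had 19.2 and 16.3 in Fe-deficient roots, against 2.37 and 2.58 in full-medium roots, and 9.44 and 2.07 in EYFP OE roots. Its call ended when the EYFP OE roots shared the estimate of the spread (limma adjusted p = 0.254).

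AT5G05250, an uncharacterised protein, rose by 1.72 log2 units in roots and changed by 1.795 in rosettes, where it had 3.29 and 8.20 on Fe-deficient medium, against 0.77 and 0.85 on full medium. AT3G20340 fell in roots and had 0.40 and 0.89 in Fe-deficient rosettes, against 9.54 and 6.53 in full-medium rosettes. RBOHD, an NADPH oxidase that makes superoxide at the plasma membrane, had 93.8 and 92.9 in Fe-deficient roots, against 46.4 and 45.2 in full-medium roots (log2 change 1.01, limma adjusted p = 0.0106).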
